A study of Mus musculus with 16 samples.

Results

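The 10 genes described here encode steps by which fat tissue takes fatty acids from circulating lipoproteins. They are Lpl, Gpihbp1, Lmf1, Angptl4, Cd36, Vldlr, Slc27a1, Acsl1, Fabp4 and Fabp5. The genes were picked by name for their known roles, and they are 10 of the 24454 genes in the count table. All 10 were among the 16682 genes kept by the filter on low counts.

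The samples were fat from the gonadal depot of lean, chow-fed male mice of the inbred strain C57BL/6J, aged 16 weeks. The groups crossed a surgery with an infusion into the cerebral ventricles. They were VX_SHU (subdiaphragmatic vagotomy, sDVX, then SHU9119), VX_Veh (vagotomy, then vehicle), Sham_SHU (sham surgery, then SHU9119) and Sham_Veh (sham surgery, then vehicle). Each group had 4 libraries of polyadenylated RNA. Vagotomy cuts branches of the vagus nerve below the diaphragm, and the peptide SHU9119 is a melanocortin receptor blocker. It was given by minipump at 1 nmol per day for 2 weeks, beginning 4 weeks after surgery. All mice had matched calorie intake during the infusion. The study's question is whether melanocortin signalling in the brain acts on fat by way of the vagus when food intake does not differ. The labels do not say that libraries came from separate mice, so p-values reflect only library-to-library spread, which may be technical.

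Triglyceride in chylomicrons and very low density lipoproteins is too large to cross the capillary wall. Lipoprotein lipase (Lpl) splits it at the surface of capillary cells. Adipocytes make the lipase, Lmf1 helps it fold in the endoplasmic reticulum, and Gpihbp1, made by capillary endothelium, carries it to the vessel lumen and anchors it there. Angptl4 inactivates the enzyme. The released fatty acids enter the adipocyte with the help of Cd36, are joined to coenzyme A by Acsl1, and are bound in the cytosol by Fabp4 and Fabp5. Adipose lipase activity is known to follow feeding state, partly through Angptl4.

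Library totals were 20425295 to 30889052 counts, and values below are CPM, counts scaled to library size with TMM factors. The summed level of 12 adipocyte markers, led by Car3 and Cfd, was 30780 to 45120 CPM in VX_SHU and 17970 to 43300 CPM in VX_Veh libraries. It was 36000 to 43590 CPM in Sham_SHU and 34300 to 55790 CPM in Sham_Veh libraries, so adipocyte markers were abundant in all 16 libraries. In 6 libraries, genes of epididymis or testis, organs beside this fat depot, summed to at least 500 CPM. These were VX_SHU4, VX_Veh4, Sham_SHU3, Sham_SHU4, Sham_Veh3 and Sham_Veh4. Fits without them kept Sham_SHU1, Sham_SHU2, Sham_Veh1 and Sham_Veh2, and libraries 1 to 3 of VX_SHU and VX_Veh. In bulk tissue, fewer cells of a type and less RNA per cell cannot be told apart.

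For 2 members 1 promoter window each is shown, because Cd36 and Vldlr are the members whose Sham_SHU and Sham_Veh libraries did not overlap. Each holds 250 bases before and 50 after 1 annotated start, from RefSeq on GRCm38.p6, the mm10 build. The table had windows for 5 of the 10 members. Capitals mark AGGTCA, the half-site of nuclear receptors such as PPARG, a regulator of adipocyte genes, read on both strands.
Cd36: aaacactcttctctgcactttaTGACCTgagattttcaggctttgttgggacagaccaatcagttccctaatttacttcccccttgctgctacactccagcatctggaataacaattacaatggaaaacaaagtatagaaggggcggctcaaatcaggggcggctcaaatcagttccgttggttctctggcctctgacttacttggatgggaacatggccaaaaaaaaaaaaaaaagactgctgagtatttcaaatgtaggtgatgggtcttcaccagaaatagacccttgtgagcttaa
Vldlr: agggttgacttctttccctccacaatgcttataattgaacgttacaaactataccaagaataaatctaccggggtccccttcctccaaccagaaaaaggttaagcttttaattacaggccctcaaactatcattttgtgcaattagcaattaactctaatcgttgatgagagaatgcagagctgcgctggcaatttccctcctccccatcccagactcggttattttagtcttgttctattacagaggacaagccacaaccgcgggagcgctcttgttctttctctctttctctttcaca
The Cd36 window lies on the minus strand at chr5:17835847-17836146 and holds the half-site once, on the opposite strand, beginning 228 bases before the start. The Vldlr window shown lies on the plus strand at chr19:27216234-27216533 and holds none. Vldlr has another window, at chr19:27216770-27217069 with a GC content of 68%, which holds none either and is not shown. Of 32851 promoter windows 16.3% hold this half-site, and of the members' 9 windows only that of Cd36 does. TATAAA is in 13.6% of all windows and in none of the members'. Both printed windows have a GC content of 43%.

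Per kilobase of transcript, Fabp4 had the highest mean level, 11610 CPM per kb over 16 libraries. Lpl followed at 3226, Cd36 at 1365 and Acsl1 at 506.2 CPM per kb. Fabp5 (210.6), Slc27a1 (198.8), Gpihbp1 (145.7) and Angptl4 (77.44 CPM per kb) came next, and Lmf1 (12.84) and Vldlr (11.48 CPM per kb) were lowest. Fabp4 ranged from 5879 to 17000 CPM per kb, above the Lpl range of 1585 to 5402 CPM per kb. Angptl4 ranged from 36.73 to 113.7 CPM per kb, above the Lmf1 range of 11.13 to 16.18 CPM per kb. All other neighbours in this order had ranges that overlapped.

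**Figure D1:**
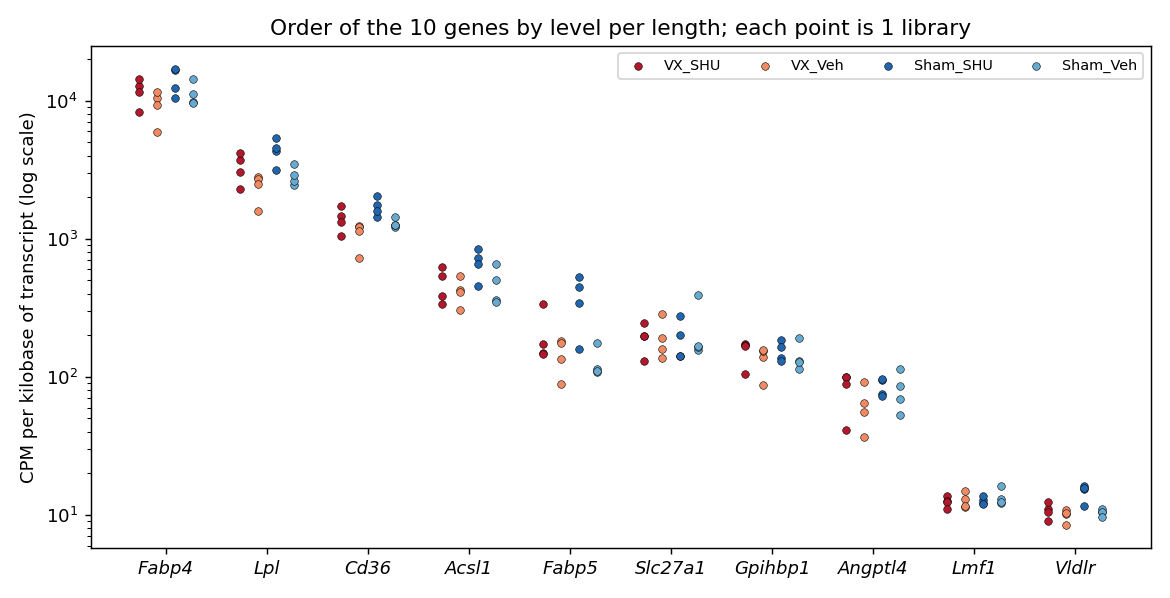
Level of the 10 genes per kilobase of transcript on a log axis, with 1 point for each of 16 libraries coloured by group. Fabp4, a cytosolic fatty acid binding protein, has the highest mean at 11610 CPM per kb, and Vldlr the lowest at 11.48 CPM per kb.

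None of the 10 genes passed an adjusted p of 0.05 in any comparison (edgeR quasi-likelihood test, adjusted over 16682 genes). Few genes of the whole table did. For Sham_SHU over Sham_Veh 0.114% of all genes were called, for VX_SHU over VX_Veh 0.00599%, and for SHU9119 averaged over both surgeries 1.87%. For VX_Veh over Sham_Veh, VX_SHU over Sham_SHU, the interaction and vagotomy averaged over both infusions 0% were called. At an unadjusted p under 0.05, 4 members were found for Sham_SHU over Sham_Veh against 19.6% of all genes, and 4 for SHU9119 averaged against 28.5%. The counts were 0 members for VX_SHU over VX_Veh (11.6% of all genes) and 0 for VX_Veh over Sham_Veh (8%). They were 2 for VX_SHU over Sham_SHU (10.7%), 1 for the interaction (4.76%) and 1 for vagotomy averaged (16%).

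**Figure D2:**
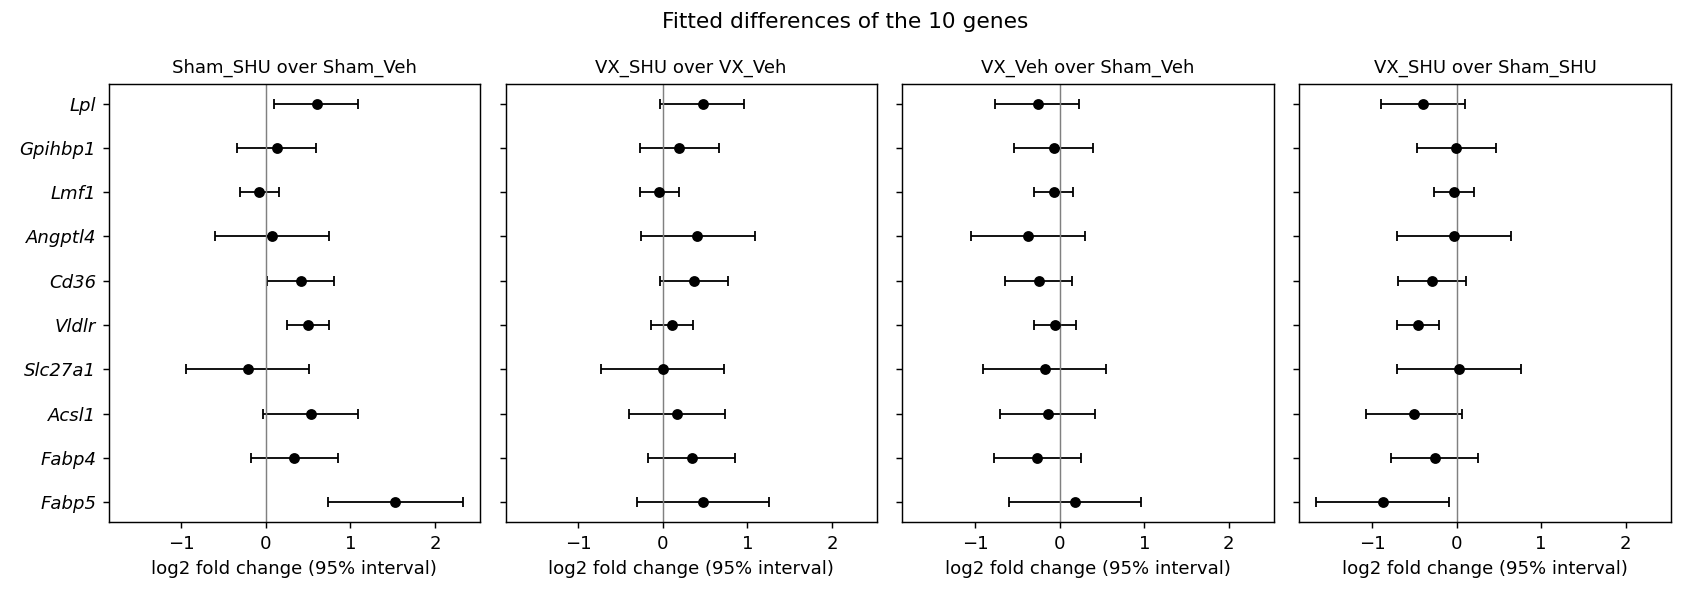
Fitted log2 fold change of each gene with its 95% interval in the 4 comparisons of single groups. Fabp5 has the largest value, 1.53 for Sham_SHU over Sham_Veh, and no gene passed the adjusted threshold.

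Lpl, the lipase itself, had 15210, 12540, 17170 and 9414 CPM in VX_SHU libraries, and 6523, 11420, 11220 and 10180 CPM in VX_Veh libraries. Sham_SHU libraries had 22230, 17800, 12880 and 18580 CPM, against 10150, 10740, 14350 and 11970 CPM in Sham_Veh libraries. Among sham libraries, Sham_SHU3 alone of its group lay below the highest Sham_Veh library, Sham_Veh3. The fitted log2 fold change of Sham_SHU over Sham_Veh was 0.60 ± 0.23 (SE; adjusted p = 0.187, edgeR), a 1.51-fold higher level. After vagotomy it was 0.47 ± 0.23 (adjusted p = 0.438). Averaged over both surgeries the log2 fold change under SHU9119 was 0.53 ± 0.163, with an adjusted p of 0.0782. The difference between the 2 SHU9119 effects was -0.13 ± 0.324 (adjusted p = 0.999). Without the 6 libraries with epididymis or testis markers, the Lpl log2 fold change of Sham_SHU over Sham_Veh was 0.95 (adjusted p = 0.107). Only Sham_SHU1 and Sham_SHU2 were then compared with Sham_Veh1 and Sham_Veh2, for Lpl and for every other member. Sham_SHU3 and Sham_Veh3 were both left out. Summed motile cilia markers were 12.9 and 23.6 CPM in the SHU9119 libraries kept, against 371.7 and 370 CPM in the vehicle libraries kept. The part of these markers was not tested.

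**Figure D3:**
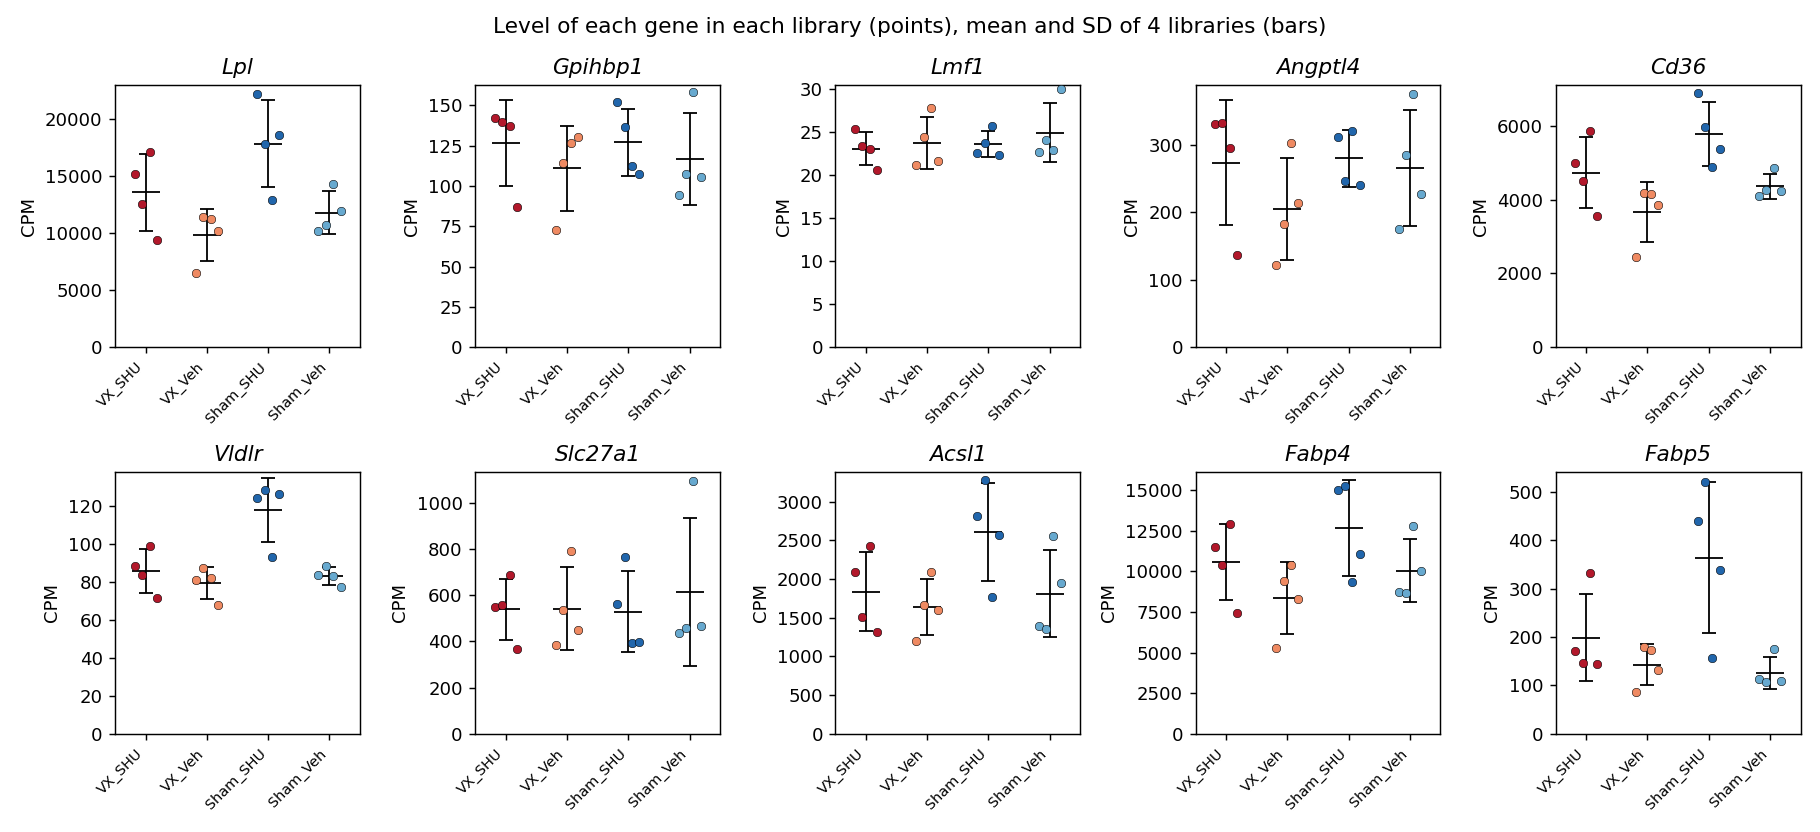
CPM of each gene in every library (points), with the mean and SD of each group of 4 libraries. For Vldlr and Cd36 every Sham_SHU library lies above every Sham_Veh library, and Fabp5 averages 363.9 CPM in Sham_SHU and 126.1 CPM in Sham_Veh.

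The partners of the lipase had smaller fitted differences between Sham_SHU and Sham_Veh. Gpihbp1 averaged 126.6 ± 26.56 CPM in VX_SHU and 110.9 ± 26.46 CPM in VX_Veh libraries (SD, n = 4 each). Its means were 127 ± 20.89 CPM in Sham_SHU and 116.5 ± 28.51 CPM in Sham_Veh libraries, and all groups overlapped. The log2 fold change of Sham_SHU over Sham_Veh was 0.13 ± 0.216 for Gpihbp1. Without the 6 marker libraries it was 0.53. Lmf1, the folding factor, spanned only 20.68 to 30.06 CPM over all 16 libraries. Its log2 fold change was -0.08 ± 0.109 in the same comparison, with a 95% interval from -0.31 to 0.15.

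Angptl4, the inhibitor, had 330.8, 332.6, 294.6 and 136.5 CPM in VX_SHU libraries, and 121.5, 183.2, 303.1 and 213.3 CPM in VX_Veh libraries. In Sham_SHU it had 312.1, 246.6, 320.6 and 240.6 CPM, against 175.3, 284.4, 376.1 and 227.5 CPM in Sham_Veh libraries. The libraries of each pair of groups were mixed in order. Its log2 fold changes were 0.41 ± 0.315 for VX_SHU over VX_Veh and 0.07 ± 0.314 for Sham_SHU over Sham_Veh. Their 95% intervals, from -0.26 to 1.09 and from -0.60 to 0.75, leave room for changes of either sign. Leaving out 1 library moved the Angptl4 value after vagotomy between 0.24, without VX_Veh1, and 0.66, without VX_Veh3. Without the 6 marker libraries it was 0.68, and the Sham_SHU over Sham_Veh value was 0.29.

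For each 100 Lpl counts, Gpihbp1 had 0.936, 1.11, 0.801 and 0.923 counts in VX_SHU libraries and 1.11, 0.999, 1.13 and 1.28 in VX_Veh libraries. The ratio was 0.684, 0.767, 0.874 and 0.577 in Sham_SHU libraries, against 0.931, 1, 1.1 and 0.882 in Sham_Veh libraries. Every Sham_SHU library had less anchor RNA per lipase RNA than every Sham_Veh library, the closest being 0.874 and 0.882, whereas the vagotomy groups overlapped. Of the other ratios to Lpl, only those of Angptl4 and Cd36 were computed, and they overlapped in sham. Angptl4 had 1.29 to 2.49 counts per 100 Lpl counts in Sham_SHU and 1.73 to 2.65 in Sham_Veh libraries. Cd36 had 29 to 38 in Sham_SHU and 33.9 to 40.5 in Sham_Veh libraries. The share of all pairs of genes without overlap was not computed. These ratios were looked at after the values were known and have no test.

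Vldlr, a receptor that binds triglyceride-rich particles through apolipoprotein E, had 88.36, 83.65, 98.93 and 71.6 CPM in VX_SHU libraries. VX_Veh libraries had 80.9, 87.35, 81.84 and 67.66 CPM. In Sham_SHU it had 123.9, 128.4, 92.84 and 126 CPM, against 83.68, 88.21, 83.1 and 77.17 CPM in Sham_Veh libraries. Every Sham_SHU library was above every Sham_Veh library, and Sham_SHU3 was the closest to them. The log2 fold change was 0.50 ± 0.117 for Sham_SHU over Sham_Veh (1.42-fold, adjusted p = 0.0708) and 0.11 ± 0.116 for VX_SHU over VX_Veh (adjusted p = 0.73). For VX_SHU over Sham_SHU it was -0.46 ± 0.117 (adjusted p = 0.376), and the groups overlapped by the level of Sham_SHU3. The interaction, the SHU9119 effect after vagotomy minus that after sham surgery, was -0.40 ± 0.165 with an unadjusted p of 0.0307 and an adjusted p of 0.999.

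Cd36, the fatty acid translocase, had 4993, 4507, 5872 and 3560 CPM in VX_SHU and 2449, 4190, 4154 and 3867 CPM in VX_Veh libraries. It had 6894, 5978, 4896 and 5384 CPM in Sham_SHU, against 4112, 4261, 4858 and 4238 CPM in Sham_Veh libraries. All Sham_SHU libraries were above all Sham_Veh libraries, the closest pair being Sham_SHU3 and Sham_Veh3. The log2 fold changes under SHU9119 were 0.41 ± 0.185 in sham (adjusted p = 0.248) and 0.37 ± 0.185 after vagotomy (adjusted p = 0.442). The sham value of Cd36 was 0.63 without the 6 marker libraries, and the value after vagotomy was 0.23 without VX_Veh1. Cd36 and Vldlr were 2 of 10 members without overlap in Sham_SHU against Sham_Veh, where 10.4% of all genes had none. No member was free of overlap for VX_SHU against VX_Veh (4.95% of all genes), VX_Veh against Sham_Veh (3.09%) or VX_SHU against Sham_SHU (5.64%).

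Acsl1, the long-chain acyl-CoA synthetase that traps fatty acids in the cell, had 2089, 1511, 2430 and 1321 CPM in VX_SHU libraries and 1196, 1666, 2085 and 1602 CPM in VX_Veh libraries. In Sham_SHU it had 2814, 3281, 1764 and 2566 CPM, against 1392, 1348, 2550 and 1948 CPM in Sham_Veh libraries. Sham_SHU3 and Sham_Veh3 crossed over, so the groups overlapped. The log2 fold change of Sham_SHU over Sham_Veh was 0.53 ± 0.263 (adjusted p = 0.281), and that of VX_SHU over Sham_SHU was -0.50 ± 0.263 (adjusted p = 0.481). Without the 6 marker libraries the Acsl1 value of Sham_SHU over Sham_Veh was 1.16. Slc27a1, a fatty acid transport protein, averaged 539.7 ± 131.9 CPM in VX_SHU and 540.9 ± 179.2 CPM in VX_Veh libraries (SD, n = 4 each). It averaged 528.8 ± 175.9 CPM in Sham_SHU and 613.4 ± 320.7 CPM in Sham_Veh libraries. The Sham_Veh mean rested on Sham_Veh3, which had 1094 CPM against 435.6, 457.4 and 466.5 CPM in the other libraries of its group. The log2 fold change of Sham_SHU over Sham_Veh was -0.21 ± 0.338, and 0.22 without Sham_Veh3.

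Fabp5, a fatty acid binding protein made in fat, skin and macrophages, varied most, 5.97-fold between its lowest and highest library. It had 171.8, 146.1, 332.2 and 144.1 CPM in VX_SHU and 87.08, 178.6, 173.5 and 132.7 CPM in VX_Veh libraries. It had 439.1, 519.5, 157.7 and 339.4 CPM in Sham_SHU, against 112.8, 107.6, 174.8 and 109.4 CPM in Sham_Veh libraries. Sham_SHU3 lay below Sham_Veh3, and the other Sham_SHU libraries lay above all Sham_Veh libraries. The log2 fold change of Sham_SHU over Sham_Veh was 1.53 ± 0.372 (2.89-fold, adjusted p = 0.0767). It was 0.47 ± 0.365 for VX_SHU over VX_Veh (adjusted p = 0.593) and -0.87 ± 0.366 for VX_SHU over Sham_SHU (adjusted p = 0.466). The Fabp5 value of VX_SHU over VX_Veh rested on VX_SHU3, and it was 0.11 without that library and 0.31 without VX_Veh1. The interaction was -1.06 ± 0.516 (adjusted p = 0.999). Averaged over both surgeries SHU9119 gave 1.00 ± 0.26 (adjusted p = 0.0611). Summed macrophage markers were 997.2 to 1422 CPM in VX_SHU and 667.3 to 1107 CPM in VX_Veh libraries (exact permutation p = 0.0857, two-sided), and 11 of 12 of these genes had a positive log2 fold change, with a median of 0.41. They were 993.2 to 1167 CPM in Sham_SHU and 1063 to 1314 CPM in Sham_Veh libraries. Over the 16 libraries Fabp5 had r = 0.21 and rho = 0.118 with the macrophage sum. Without the 2 libraries farthest from the median of that sum it had r = -0.006. The part of macrophage markers in the Fabp5 values was not tested.

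Fabp4, the main fatty acid binding protein of adipocytes, had 11480, 10380, 12900 and 7410 CPM in VX_SHU and 5267, 9424, 10410 and 8300 CPM in VX_Veh libraries. Sham_SHU libraries had 15020, 15240, 9320 and 11070 CPM, against 8744, 8630, 12800 and 9993 CPM in Sham_Veh libraries. The groups overlapped in both pairs. The log2 fold changes under SHU9119 were 0.33 ± 0.241 in sham and 0.34 ± 0.241 after vagotomy, with adjusted p of 0.445 and 0.56. The Fabp4 value in sham was 0.81 without the 6 marker libraries, and the value after vagotomy was 0.18 without VX_Veh1 and 0.22 without VX_SHU3. Fabp4 and Fabp5 lie in a gene cluster on chromosome 3, at chr3:10204342-10208616 and chr3:10012585-10016610 (mm10), with Pmp2, Fabp9 and Fabp12. Pmp2 averaged 0.272 CPM and Fabp12 averaged 1.03 CPM. Fabp9 averaged 13.5 CPM and ranged from 0.372 to 124 CPM over the 16 libraries.

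For each 100 Fabp4 counts, Fabp5 had 1.5, 1.41, 2.58 and 1.95 counts in VX_SHU libraries and 1.65, 1.89, 1.67 and 1.6 in VX_Veh libraries. It had 2.92, 3.41, 1.69 and 3.07 in Sham_SHU libraries, against 1.29, 1.25, 1.36 and 1.09 in Sham_Veh libraries. Here Sham_SHU3, which is low for both genes, was also above every Sham_Veh library. Each VX_Veh library was above each Sham_Veh library too, and VX_SHU and VX_Veh libraries overlapped. This ratio was chosen after the values were known and has no test. For it too, the share of all pairs of genes without overlap was not computed.

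**Figure D4:**
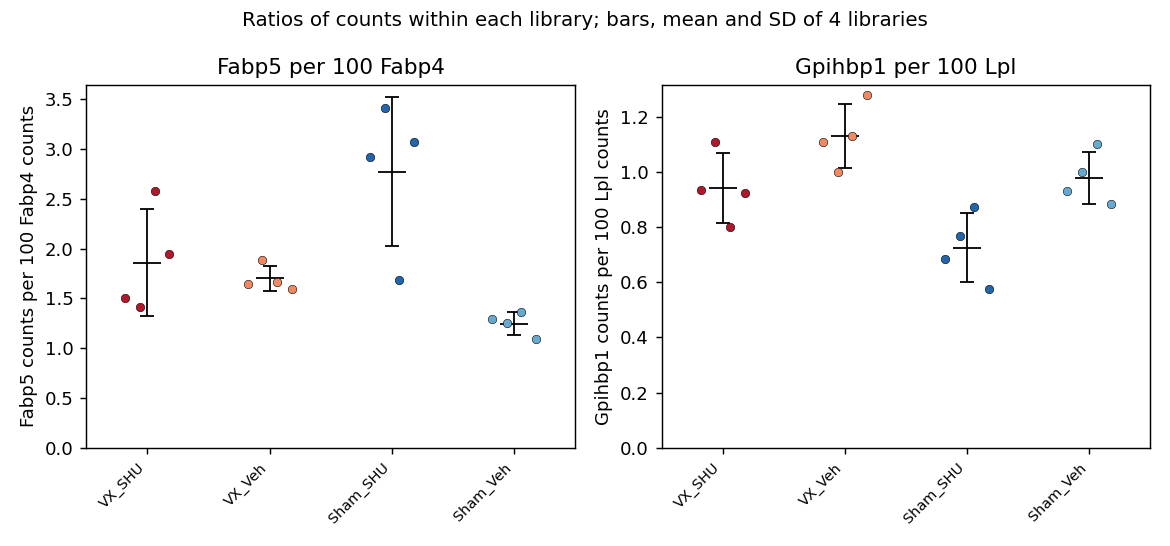
Fabp5 counts per 100 Fabp4 counts (left) and Gpihbp1 counts per 100 Lpl counts (right) in each library, with mean and SD of 4 libraries. The Fabp5 ratio averages 2.77 in Sham_SHU and 1.25 in Sham_Veh, and the Gpihbp1 ratio 0.726 in Sham_SHU and 0.978 in Sham_Veh.

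As a group, 8 of 10 members had a positive log2 fold change for Sham_SHU over Sham_Veh, with a median of 0.37 beside -0.06 for all genes. For VX_SHU over VX_Veh 8 of 10 were positive, with a median of 0.26 beside -0.02. Under vagotomy 1 of 10 was positive in each infusion, with medians of -0.16 for VX_Veh over Sham_Veh (0.01 for all genes) and -0.28 for VX_SHU over Sham_SHU (-0.01). The count for VX_Veh over Sham_Veh depended on the processing: by limma-voom 7 of 10 were positive (median 0.09), without the 6 marker libraries 5 of 10 (median 0.01), and without Sham_Veh3 4 of 10 (median -0.08). For VX_SHU over Sham_SHU 4 of 10 were positive by limma-voom (median -0.28) and 4 of 10 without VX_SHU4 (median -0.15). These comparisons share libraries, and the members vary together across libraries, so the counts are not independent of each other.

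Other tools called some members. The DESeq2 Wald test called Vldlr and Fabp5 higher for Sham_SHU over Sham_Veh, where it called 8.74% of all genes, and Lpl, Cd36, Vldlr and Fabp5 for SHU9119 averaged (17.6%). It called Vldlr lower for VX_SHU over Sham_SHU (0.574%). The limma-voom fit with sample weights called Lpl, Cd36, Vldlr, Acsl1 and Fabp5 higher for Sham_SHU over Sham_Veh (23.2%) and for SHU9119 averaged (23.1%). It called Vldlr and Fabp5 lower for VX_SHU over Sham_SHU (4.69%). Neither tool called a member for VX_SHU over VX_Veh, VX_Veh over Sham_Veh, the interaction or vagotomy averaged.

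Single libraries decided some calls by edgeR. Without Sham_SHU3, Vldlr and Fabp5 were called for Sham_SHU over Sham_Veh (5.83% of all genes) and Lpl, Vldlr and Fabp5 for SHU9119 averaged (9.58%). Without VX_Veh1, Vldlr and Fabp5 were called for Sham_SHU over Sham_Veh (3.11%), and without VX_SHU3 Fabp5 was (1.05%). Without VX_SHU4, Vldlr was called for SHU9119 averaged (2.24%). Without all 6 libraries with epididymis or testis markers, Lpl, Vldlr, Acsl1 and Fabp5 were called for SHU9119 averaged (24.4%). All of these were higher under SHU9119. In the libraries kept without those 6, summed motile cilia markers were 9.137 to 176.3 CPM under SHU9119 and 245.4 to 1004 CPM under vehicle. Summed mesothelial markers were 33.58 to 208.8 CPM under SHU9119 and 255.9 to 653.4 CPM under vehicle. The part of the epididymis, testis, cilia and mesothelial markers in the members' values was not tested.

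Lpl and Cd36 moved closely together over the 16 libraries, with r = 0.974 and rho = 0.968 of log2 CPM, and r = 0.958 without the 2 libraries farthest from the Lpl median. Among 11672 genes Cd36 was the most like Lpl, followed by Slc18b1 (r = 0.971) and Bche, a cholinesterase (r = 0.968). The genes most like Cd36 were Reep5 (r = 0.987), Ehd2, a protein of caveolae (0.985), and Msn, the cytoskeletal linker moesin (0.977). Fabp4 was most like Dbi, the acyl-CoA binding protein (r = 0.984), Marchf2 (0.98) and Plaat3 (0.979). Gpihbp1 was most like Arap3 (r = 0.949), Mgst3 (0.941) and Robo4, an endothelial receptor (0.94). The genes share their libraries, groups and fat depot, and the values are descriptions without a test.

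**Figure D5:**
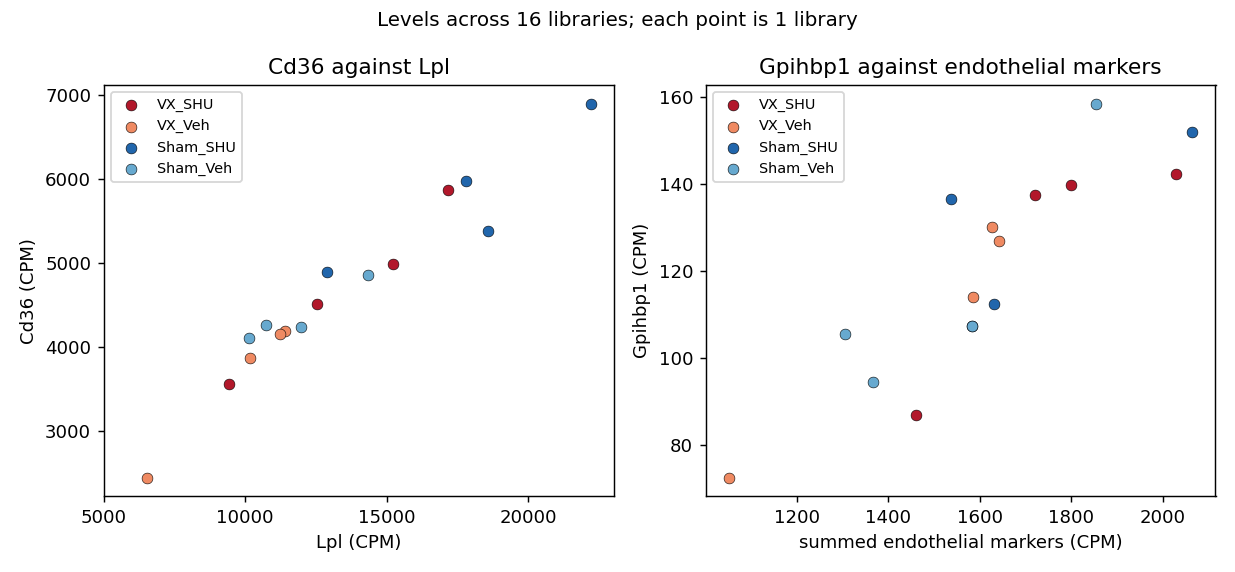
Cd36 against Lpl (left) and Gpihbp1 against 12 summed endothelial markers (right), in CPM, with 1 point per library coloured by group. Lpl and Cd36 vary together (r = 0.974 of log2 CPM), and Gpihbp1 goes with the endothelial sum (r = 0.883).

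None of the 10 genes is in the adipocyte or endothelial marker list. Gpihbp1 had r = 0.883 and rho = 0.9 with the endothelial sum over 16 libraries, and r = 0.782 without the 2 libraries farthest from the median of that sum. With the adipocyte sum Gpihbp1 had r = 0.855, whereas Vldlr had r = 0.31 with the endothelial and r = 0.27 with the adipocyte sum. These are descriptions over the same libraries, without a test. The endothelial sum was 1460 to 2028 CPM in VX_SHU and 1052 to 1641 CPM in VX_Veh libraries. In Sham_SHU it was 1537 to 2064 CPM, against 1306 to 1853 CPM in Sham_Veh libraries. VX_Veh1 had the lowest level of 7 members in all 16 libraries and the lowest adipocyte sum, 17970 CPM. Over 8 cell type lists and 4 comparisons, the exact permutation test of 4 against 4 libraries (two-sided) gave adjusted p of at least 0.61 over 32 tests. Its smallest possible p is 0.0286 before adjustment, so these adjusted values say little about whether the lists differed. Muscle markers reached that p, with 116.4 to 121 CPM in VX_SHU and 72.98 to 107.4 CPM in VX_Veh libraries, without overlap. In sham they were 99.24 to 177.7 CPM in Sham_SHU and 82.68 to 106.7 CPM in Sham_Veh libraries (exact p = 0.0571). Myl1 and Des made up 43.9% and 40.2% of the muscle sum, and others were near the floor, such as Ckm with a mean of 0.1143 CPM. Of 8 tested muscle genes 7 were positive for VX_SHU over VX_Veh (median 0.31), and 4 for Sham_SHU over Sham_Veh (median 0.03). The sum is thus mostly the level of Myl1 and Des. Genes of motile cilia averaged 58.9 CPM in VX_SHU and 385.5 CPM in VX_Veh (exact p = 0.114), and 60.59 CPM in Sham_SHU and 268 CPM in Sham_Veh (exact p = 0.143). Averaged over both surgeries, 9 of 12 cilia genes had an unadjusted p under 0.05 and none had a positive log2 fold change under SHU9119, though 0 were called. Mesothelial markers averaged 172.2 CPM in VX_SHU and 386.3 CPM in VX_Veh (exact p = 0.0571), and 118.1 CPM in Sham_SHU and 229 CPM in Sham_Veh (exact p = 0.171). Krt8 and Krt18 made up 34% and 21% of that sum. They averaged 50.2 and 33.39 CPM in VX_SHU, against 161.3 and 99.3 CPM in VX_Veh. Msln and Wt1 averaged 10.21 and 14.26 CPM in VX_SHU, against 13.09 and 12.59 CPM in VX_Veh. Of 9 tested mesothelial genes 2 were positive for VX_SHU over VX_Veh (median -0.20), and 0 for Sham_SHU over Sham_Veh (median -0.64). The part of these cell types in the members' values was not tested.

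Taken per adipocyte marker sum, 5 of 10 members (Lpl, Cd36, Vldlr, Fabp4 and Fabp5) were higher in every Sham_SHU than in every Sham_Veh library, where 7.42% of all genes did not overlap in either direction. The remaining 5, Gpihbp1, Lmf1, Angptl4, Slc27a1 and Acsl1, overlapped. For VX_SHU against VX_Veh 0 of 10 members were free of overlap on this scale. Cd36 and Vldlr were lower in every VX_SHU than in every Sham_SHU library, and Fabp5 was higher in every VX_Veh than in every Sham_Veh library. The share of all genes on this scale was computed only for Sham_SHU against Sham_Veh. Car3 alone made up 44.3% of the adipocyte sum. Cfd made up 21.1% of it, and averaged 5069 CPM in Sham_SHU against 10390 CPM in Sham_Veh libraries. Its log2 fold change was -1.04 ± 0.314 (adjusted p = 0.114, edgeR), so a lower Cfd level raises the members' values on this scale in Sham_SHU. The size of that part was not tested. The scale was chosen after the values were known and has no test.

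Related genes of the pathway were not called by edgeR in any comparison. Among 11 tested of 12 lipase partners 9 had a positive log2 fold change for Sham_SHU over Sham_Veh, with a median of 0.42 beside -0.06 for all genes. The most abundant were Sel1l, which helps the lipase leave the endoplasmic reticulum (0.24 ± 0.0803, adjusted p = 0.142), and Apoc1, an apolipoprotein that slows lipolysis (-0.44 ± 0.326, adjusted p = 0.457). Angptl8, which acts with other Angptl proteins on the lipase, averaged 20.05 ± 10.5 CPM in Sham_SHU and 6.387 ± 3.23 CPM in Sham_Veh libraries, with a log2 fold change of 1.65 ± 0.437 (adjusted p = 0.0893). It was picked after its values were seen.

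Of 8 lipoprotein receptors and ligands 5 were positive in the same comparison, with a median of 0.26. Apoe had -0.42 ± 0.155 (adjusted p = 0.169) and Lrp1 had 0.11 ± 0.169 (adjusted p = 0.732). Of 10 transporters and synthetases 6 were positive, with a median of 0.12. Acsl5, another acyl-CoA synthetase, had 0.06 ± 0.0702 (adjusted p = 0.636). Acsbg1 averaged 12.06 ± 15.7 CPM in Sham_SHU and 76.54 ± 68.8 CPM in Sham_Veh libraries, with a log2 fold change of -2.66 ± 1.45 (adjusted p = 0.317). The cilia markers given above were also lower in mean in Sham_SHU, 60.59 CPM against 268 CPM in Sham_Veh, and their part in the Acsbg1 value was not tested. Of 11 binding and caveolar proteins 9 were positive, with a median of 0.26. Cav1, the main caveolar coat protein, had 0.25 ± 0.15 (adjusted p = 0.362), and Dbi had 0.46 ± 0.236 (adjusted p = 0.293).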

How the data were processed

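Sequencing of polyadenylated RNA covered 16 libraries of mouse gonadal fat, 4 per group. The authors deposited whole-number read counts per NCBI gene number. Per the submitters' processing notes, bcl2fastq, TopHat, edgeR and mm10 were used; versions are missing. Which counting tool, gene annotation and strandedness the authors used is not given in the sources used here, so reads of genes that overlap, or of near-identical copies, may be shared. Symbols came from RefSeq for 24374 gene numbers.

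Counts were filtered by filterByExpr and scaled by TMM, and a robust quasi-likelihood model was fitted to all 16 libraries with edgeR 4.0.16 in R 4.3.3 (12 residual degrees of freedom), with Benjamini-Hochberg adjustment over 16682 genes and a threshold of 0.05. Each standard error divides the log2 fold change by the square root of F. CPM per kb used 1 RefSeq-matched coding transcript per gene. Log2 CPM had a prior count of 2, and likeness was Pearson's r over genes of at least 5 CPM. Alternatives were DESeq2 1.42.0, limma 3.58.1 and others given in the closing section. The fits were also run on simulated counts, with the same dispersion for every gene and no library set apart by epididymis or testis markers. The real counts differ from this, so that run does not show how reliable the calls are here. No 2 libraries of the same group were copies (chi-square per degree of freedom at least 12.4), and pairs across groups were not checked. Named were all 10 members, the 2 most abundant genes of each pathway list and the 3 genes most like Lpl, Gpihbp1, Cd36 and Fabp4. The members and lists were chosen with earlier results of these data known.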

Additional observations from a re-analysis of the deposited data

Results flagged for a closer look

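In groups of 4 libraries, a library was picked out where its gap to the nearest of the others, over the range of the group, passed Dixon's 95% critical value for 4 samples. This was so for 5 of 40 combinations of gene and group, and chance flags about 1 in 20 groups. Vldlr was 92.84 CPM in Sham_SHU3, low among its group. Gpihbp1 was 86.86 CPM in VX_SHU4, also low. Slc27a1 was 1094 CPM in Sham_Veh3, Fabp5 was 174.8 CPM in Sham_Veh3, and Fabp5 was 332.2 CPM in VX_SHU3, all high among their groups. Sham_SHU3, Sham_Veh3 and VX_SHU4 are among the 6 libraries with epididymis or testis markers, and VX_SHU3 is not. The part of these markers in the values was not tested.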

How the results depend on the processing

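Of 1650 recomputed log2 fold changes of the members, 1505 kept their direction and side of the threshold, 32 passed it where they had not, and 113 changed sign. None of the 113 had passed the threshold, and their values as reported ran from -0.27 to 0.21. The causes were not tested. The number of members past the threshold was 0 in every comparison. It became 2 for SHU9119 in sham, 1 for vagotomy under SHU9119 and 4 for SHU9119 averaged by the DESeq2 Wald test, and 5, 2 and 5 in that order by limma-voom. It became 4 for SHU9119 averaged without the 6 marker libraries. Leaving out 1 library gave 0 to 2 members for SHU9119 in sham and 0 to 3 for SHU9119 averaged. The settings that called no member were no filter, DESeq2 size factors, non-robust dispersion, only the 2 groups and the replicate block.

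Same-numbered libraries had correlations from -0.69 to 0.68 over 24 pairs, of which 13 were over 0.1, and 2 of 16 libraries correlated best with their own number. The labels tie the numbers to no shared batch, so the fit without the block was kept as the main one. Replicate 4 of all 4 groups is among the 6 marker libraries, and 5 of its 6 pairs were over 0.1. What these libraries share was not tested. The replicate block left 0 genes of the table called in every comparison. Under the block, 3 values changed sign: Slc27a1 to 0.01 (SHU9119 after vagotomy) and -0.02 (vagotomy under SHU9119), and Fabp4 to -0.02 (interaction).

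By limma-voom, sign changes were Slc27a1 0.05 for SHU9119 in sham; for vagotomy under vehicle Lpl 0.02, Gpihbp1 0.19, Lmf1 0.10, Slc27a1 0.36, Acsl1 0.29 and Fabp4 0.07. Under SHU9119 they were Gpihbp1 0.07, Lmf1 0.04 and Angptl4 0.11. For the interaction they were Gpihbp1 -0.12, Lmf1 -0.06, Slc27a1 -0.23 and Fabp4 -0.31, and for vagotomy averaged Gpihbp1 0.13, Lmf1 0.07, Angptl4 0.05 and Slc27a1 0.25.

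Without the marker libraries, Slc27a1 became 0.58 for SHU9119 in sham, 0.09 after vagotomy and 0.33 averaged. For vagotomy under vehicle Gpihbp1 became 0.06, Lmf1 0.07, Slc27a1 0.37 and Acsl1 0.28, and under SHU9119 Lmf1 0.07, Angptl4 0.22 and Slc27a1 -0.12. The interaction became -0.08 for Gpihbp1, 0 for Lmf1, -0.49 for Slc27a1 and -0.32 for Fabp4, and vagotomy averaged 0.02 for Gpihbp1, 0.07 for Lmf1, 0.02 for Angptl4 and 0.12 for Slc27a1. Slc27a1 for SHU9119 after vagotomy became 0 with DESeq2 or its size factors and 0.02 with no filter. Gpihbp1 for vagotomy under SHU9119 became 0.02 with no filter and 0.01 with only the 2 groups.

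Leaving out 1 library in turn, values with a sign change ran as follows. For SHU9119 in sham, Slc27a1 ran from -0.43 to 0.22, Angptl4 from -0.07 to 0.29 and Lmf1 from -0.12 to 0.05. For SHU9119 after vagotomy, Slc27a1 ran from -0.14 to 0.24 and Lmf1 from -0.09 to 0.04. For SHU9119 averaged, Slc27a1 ran from -0.21 to 0.11 and Lmf1 from -0.08 to 0.02. For vagotomy under vehicle, Slc27a1 ran from -0.42 to 0.26, Acsl1 from -0.28 to 0.07, Gpihbp1 from -0.15 to 0.12, Lmf1 from -0.15 to 0.05 and Vldlr from -0.11 to 0.01. For vagotomy under SHU9119, Slc27a1 ran from -0.11 to 0.26, Angptl4 from -0.14 to 0.19, Gpihbp1 from -0.08 to 0.14 and Lmf1 from -0.08 to 0.03. For vagotomy averaged, Slc27a1 ran from -0.20 to 0.14, Lmf1 from -0.09 to 0.02 and Gpihbp1 from -0.08 to 0.06. The interaction ran from -0.23 to 0.45 for Slc27a1, -0.30 to 0.01 for Lpl, -0.12 to 0.21 for Gpihbp1, -0.07 to 0.12 for Lmf1, -0.20 to 0.08 for Cd36 and -0.17 to 0.14 for Fabp4.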
